A study of Mus musculus with 6 samples.

Results

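The genes described here are integrin subunits, the tetraspanins and other membrane proteins that associate with them, and the adaptors that bind their cytoplasmic tails. The list held 31 gene symbols, and a gene was represented by its brightest probe set over the 6 arrays among those annotated with exactly 1 symbol. This gave 30 genes of 18193 measured. Ptk2, the focal adhesion kinase gene, had 0 annotated probe sets and was not analysed here.

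Cortical cells were sorted by fluorescence, with gates against dead, clumped and autofluorescent cells, and profiled on 6 arrays. The 3 reactive samples were eGFP-positive cells of FVB/N mice carrying TgN(hGFAP-EGFP) GFEA, a reporter under a human GFAP promoter. They came from the grey matter of the somatosensory cortex 5 days after stabbing, the cut being 1 to 1.2 mm in length and 0.7 mm in depth. The 3 non-reactive samples were eGFP-positive cells from the same region of uninjured FVB/N mice carrying Tg(Aldh1l1-eGFP)OFC789Gsat, a reporter under Aldh1l1 control. All mice were 2 to 3 months old, their sex was not determined, and each array carried RNA pooled from about 15 animals. Injury and reporter line coincide, so their parts in any difference cannot be told apart. The protocol also describes BrdU given to label dividing cells, without saying whether the mice of the arrays received it.

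An integrin is a pair of 1 alpha and 1 beta subunit that spans the membrane and binds matrix proteins or receptors on other cells. Talin and the kindlins bind the beta tail inside the cell and switch the receptor to its high-affinity form, and tetraspanins organise integrins into membrane domains. In the brain, astrocyte endfeet hold laminin receptors at the vascular basement membrane and integrins of the alpha v family, while microglia and blood leukocytes carry the beta 2 family.

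The deposited values are log2 RMA values, so a difference of 1 is a doubling. Pairs of reactive arrays correlated at 0.901 to 0.921, pairs of non-reactive arrays at 0.95 to 0.963 and mixed pairs at 0.889 to 0.93. Astrocyte markers were present in both groups, and their summed level was 23224 to 25575 on the reactive and 41067 to 50393 on the non-reactive arrays (RMA values before the log, 11 markers, on a scale with no zero). Of these, Gfap rose, and Slc1a3, Gja1 and Sox9 fell. The summed level of 14 markers of microglia and macrophages was 23131 to 33952 on the reactive and 8078 to 8699 on the non-reactive arrays, and 6 of these 14 rose and 0 fell. Cx3cr1, P2ry12 and Csf1r overlapped between groups, with differences of 0.04, 0.84 and 0.42. The summed level of 7 markers of blood monocytes and neutrophils was 1832 to 3653 on the reactive and 174 to 309 on the non-reactive arrays. Of these 7, 2 rose and 0 fell. Lyz2 and Plac8 were those that rose, while S100a8, S100a9, Mpo, Ccr2 and Csf3r did not pass, the last 2 with differences of -0.03 and -0.44, so the sum follows 2 genes. The 9 lymphocyte markers summed to 277 to 318 on the reactive and 241 to 299 on the non-reactive arrays. Oligodendrocyte markers were bright in both groups (23083 to 23945 on reactive and 20041 to 24999.7 on non-reactive arrays, 9 markers), and 0 of them passed. Their mean log2 level was 9.11, 9.33 and 9.58 on the reactive and 8.51, 8.39 and 9.08 on the non-reactive arrays. Of the 9 differences 8 lay above 0, and that of Mbp, the brightest, was -0.49. Among 9 lymphocyte, 7 neuronal and 8 endothelial and pericyte markers 0 passed. The 3′ minus 5′ difference of the Actb control probe sets was 2.53 to 4.27 on the reactive and 4.48 to 5.37 on the non-reactive arrays. The parts of these cell types and of RNA quality in the results below were not tested, and in sorted pools more cells of a type and more RNA per cell cannot be told apart.

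Of the 30 genes, 0 passed the threshold in either direction (limma, Benjamini-Hochberg over 45037 probe sets, adjusted p below 0.05), against 0.951% of all genes. At an unadjusted p under 0.05, 2 of the 30 were higher and 4 lower in the reactive arrays, against 7.88% and 7.13% of all genes. Reactive and non-reactive values were fully separated for 4 higher and 4 lower genes, against 13.5% and 8.2% of all genes. The 4 higher ones were Cd9, Cd82, Itgb1 and Itgb7, and the 4 lower ones Fermt2, Itgb8, Itga7 and Itgav. The median log2 difference of the 30 was 0.21, beside 0.12 over all 18193 genes. Above 0 lay 21 of the 30, and 11037 of all 18193. The results below are therefore levels, differences and their 95% intervals rather than calls.

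**Figure D1:**
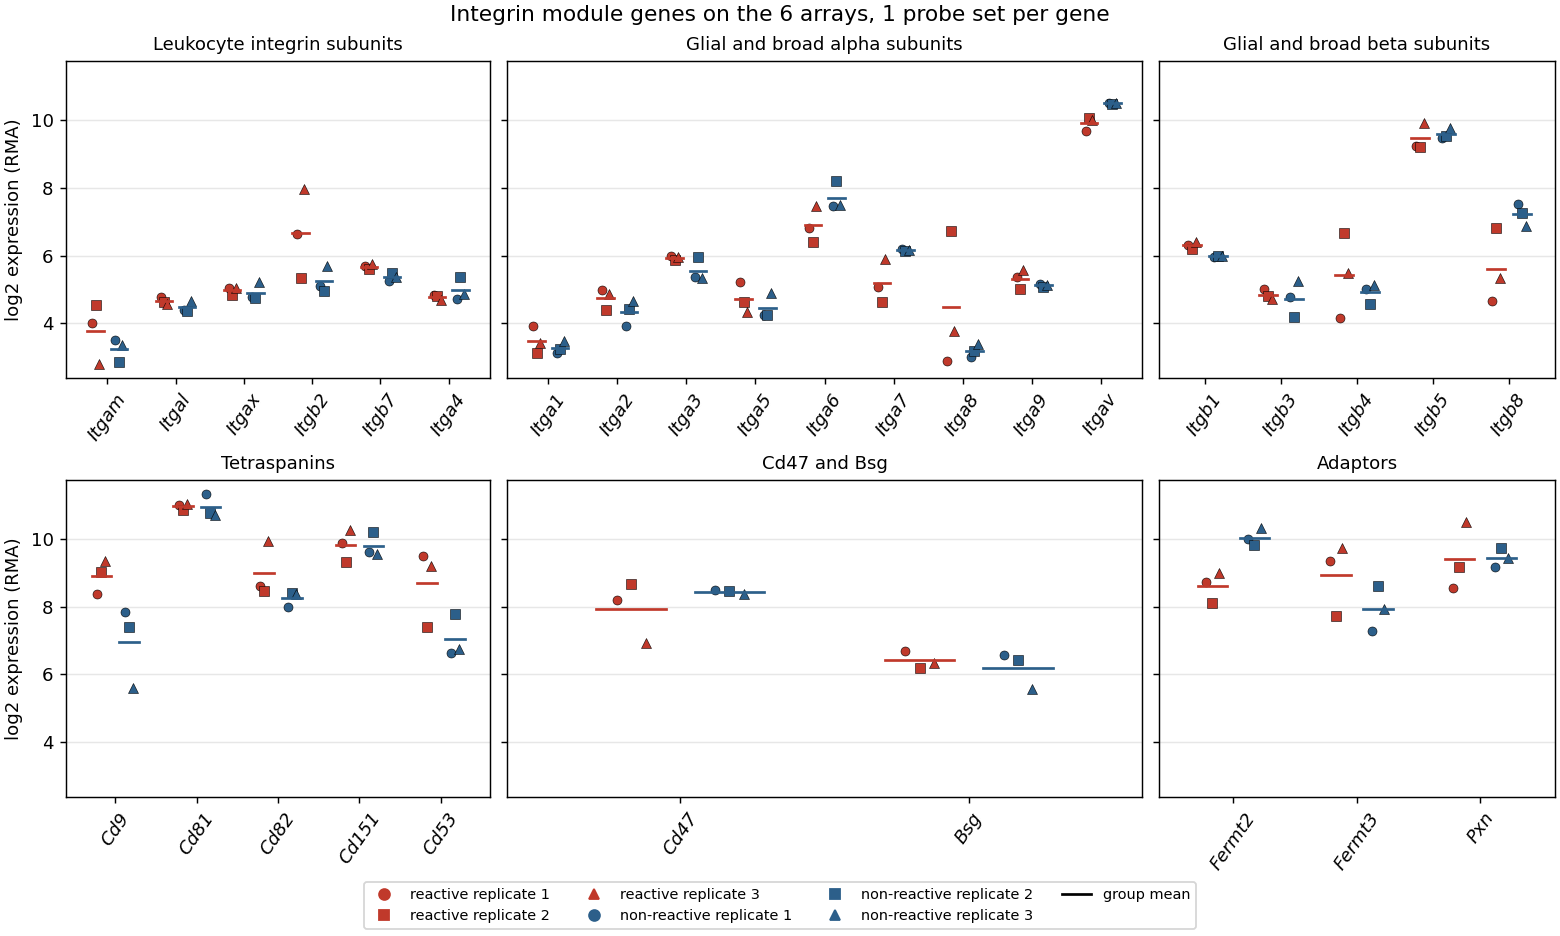
Log2 RMA expression (y axis) of the 30 genes, grouped by role, with each array as a point and each group mean as a bar, reactive left of non-reactive. Fermt2 lies lower on all 3 reactive arrays and Cd9 higher, while Itga8 shows 1 reactive array far from the others and Itgb2 and Itgb4 are spread widely among the reactive arrays.

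Among the leukocyte integrins the beta 2 chain had the widest difference. Itgb2, the CD18 subunit shared by the leukocyte integrins, measured 6.64, 5.35 and 7.98 on the reactive arrays, against 5.12, 4.95 and 5.70 on the non-reactive arrays. Reactive replicate 3 was highest, and reactive replicate 2 lay inside the non-reactive range. The difference was 1.40 (SE 0.64, 95% interval -0.12 to 2.92), with a limma adjusted p of 0.412. It was 0.74 without reactive replicate 3 and 2.05 without reactive replicate 2.

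The alpha partners of beta 2 lay near or below the median probe set. Itgam, the CD11b chain of microglia, monocytes and neutrophils, measured 4.01, 4.54 and 2.82 on the reactive arrays and 3.52, 2.85 and 3.37 on the non-reactive arrays. These means of 3.79 and 3.25 lie below the typical probe set, whose median is 4.74, and reactive replicate 3, the array with the highest Itgb2, gave the lowest Itgam. The difference of 0.54, at its single probe set, had an interval of -0.55 to 1.64. It was 0.17 without reactive replicate 2 and 1.03 without reactive replicate 3. The summed levels of microglia and macrophage markers, and of monocyte and neutrophil markers, were higher on every reactive array. The second sum follows Lyz2 and Plac8, and the part of these cells in the values was not tested.

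Itgal, the CD11a chain of lymphocytes and other leukocytes, differed by 0.18 (SE 0.19) at its brightest probe set and by 1.23 (SE 0.27, limma adjusted p = 0.11) at its other one. At that other probe set the groups did not overlap, with means of 4.92 ± 0.42 in reactive and 3.69 ± 0.17 in non-reactive arrays (SD, n = 3), the second of which lies below the median probe set. Itgax, the CD11c chain of dendritic cells and some activated microglia, differed by 0.06, with an interval of -0.46 to 0.58. Itgb7, the partner of alpha 4 in gut-homing lymphocytes, measured 5.69, 5.61 and 5.74 on the reactive and 5.26, 5.48 and 5.36 on the non-reactive arrays. Every reactive value exceeded every non-reactive one by a small margin, and the interval of the difference was -0.13 to 0.75. Itga4, the alpha 4 chain that binds Vcam1, differed by -0.21 and by values from -0.53 to 0.46 over its 5 probe sets. Of the 6 leukocyte subunits, 0 passed and 5 lay above 0, with a median difference of 0.25.

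The alpha v family, which binds vitronectin, Mfge8 and latent TGF-beta, included a bright probe set of its alpha chain. Itgav, the alpha v chain, measured 9.67, 10.06 and 10.01 on the reactive arrays, against 10.49, 10.48 and 10.51 on the non-reactive arrays. The non-reactive arrays were nearly equal (SD 0.02) and lay above every reactive one. The difference of -0.58 (SE 0.20, 95% interval -1.06 to -0.11) had a limma adjusted p of 0.291. Of the 4 other Itgav probe sets, all with means below the median probe set, 3 had differences above 0, the largest 0.73 with groups that did not overlap, so the sign depended on the probe set.

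Itgb8 pairs with alpha v on astrocytes and neural progenitors, where the pair releases active TGF-beta from its latent form. It measured 4.65, 6.80 and 5.34 on the reactive arrays, against 7.51, 7.25 and 6.89 on the non-reactive arrays. Every reactive array was lower, and reactive replicate 2 came within 0.1 of the lowest non-reactive one. The difference was -1.62 (SE 0.54, interval -2.91 to -0.33), a mean 3.07-fold lower, with a limma adjusted p of 0.282. Without reactive replicate 2 it was -2.22 with an adjusted p of 0.0683, and the alternatives ran from 0.0683 to 0.568.

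The other partners of alpha v did not follow Itgb8 in size. Itgb5 differed by -0.13, with an interval of -0.75 to 0.49, and by -0.11, -0.28 and -0.13 at its other probe sets. Itgb3, the platelet and osteoclast chain, lay near the median probe set in both groups (4.85 ± 0.15 in reactive and 4.73 ± 0.54 in non-reactive arrays, SD, n = 3). Itgb1, the common partner of most alpha chains, measured 6.33, 6.21 and 6.41 on the reactive and 5.95, 5.98 and 6.00 on the non-reactive arrays. The groups did not overlap, yet the difference was only 0.34, with an interval of -0.10 to 0.77. Its 5 other probe sets had differences from -0.04 to 0.67.

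Of the laminin receptors, the alpha 6 and alpha 7 chains measured lower in reactive samples. Itga6, a laminin receptor chain of endfeet, endothelium and progenitors, measured 6.82, 6.41 and 7.47 on the reactive arrays, against 7.46, 8.20 and 7.49 on the non-reactive arrays. Reactive replicate 3 overlapped with the non-reactive arrays, and the difference was -0.82 (interval -1.65 to 0.02). At the other Itga6 probe set the difference was 0.28 (SE 0.72).

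Itga7, a laminin receptor chain known best from muscle, measured 5.08, 4.62 and 5.91 on the reactive arrays, against 6.19, 6.13 and 6.15 on the non-reactive arrays. The non-reactive values were nearly equal and all 3 reactive ones lay below them. The difference was -0.95 (SE 0.34, interval -1.77 to -0.14), with a limma adjusted p of 0.31. Itga3, whose product pairs with beta 1 and with Cd151, differed by 0.39 (interval -0.18 to 0.95). Itgb4, the partner of alpha 6 in hemidesmosomes, measured 4.17, 6.66 and 5.48 on the reactive and 5.03, 4.57 and 5.14 on the non-reactive arrays. Its difference of 0.52 rested on reactive replicate 2, without which it was -0.09.

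The collagen and fibronectin receptor chains lay near or below the median probe set in both groups. Itga1 and Itga2, the collagen receptor chains, differed by 0.21 and 0.42, and Itga5, the fibronectin receptor chain, by 0.26, each with an interval that includes 0. Itga9, which binds tenascin-C, differed by 0.20. Itga8, a receptor for nephronectin, measured 2.88, 6.73 and 3.79 on the reactive arrays, against 3.02, 3.17 and 3.38 on the non-reactive arrays. Reactive replicate 2 stood alone, and without it the difference of 1.28 was 0.15. Over the 14 glial and broadly expressed alpha and beta subunits 0 passed.

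**Figure D2:**
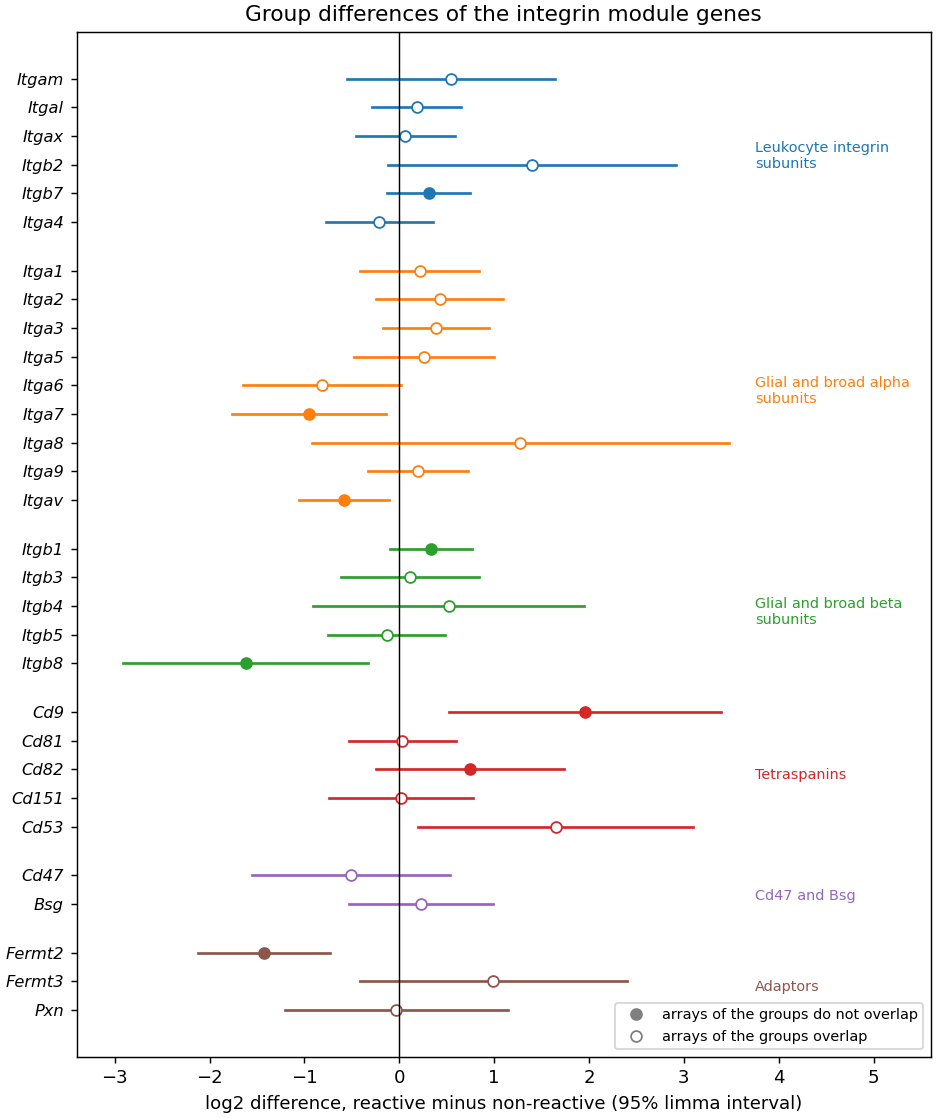
Log2 difference, reactive minus non-reactive, of each gene (x axis) with its 95% limma interval, ordered by role. Filled points mark the 8 genes whose arrays do not overlap between groups. The intervals of Cd9 and Cd53 lie above 0 and those of Itga7, Itgav, Itgb8 and Fermt2 below it, before adjustment for the number of probe sets.

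Of all 30 genes, the tetraspanin genes Cd9 and Cd53 gave the highest differences. Cd9, a tetraspanin of glia, platelets and many other cells, measured 8.37, 9.01 and 9.35 on the reactive arrays, against 7.84, 7.40 and 5.602 on the non-reactive arrays. Every reactive array exceeded every non-reactive one, and non-reactive replicate 3 was the lowest by far. The difference was 1.96 (SE 0.60, interval 0.53 to 3.39), a mean 3.89-fold higher, with a limma adjusted p of 0.242. Without non-reactive replicate 3 it was 1.29.

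Cd53, a tetraspanin of leukocytes and microglia, measured 9.50, 7.40 and 9.20 on the reactive arrays, against 6.64, 7.78 and 6.74 on the non-reactive arrays. Reactive replicate 2 lay inside the non-reactive range, as it did for Itgb2. That range was set by non-reactive replicate 2, which lay above the other non-reactive arrays. The difference was 1.65 (SE 0.61, interval 0.20 to 3.09, limma adjusted p = 0.324). Without reactive replicate 2 it was 2.30 with an adjusted p of 0.0915, and the alternatives ran from 0.0915 to 0.618. The mean log2 level of the microglia and macrophage markers was higher on all 3 reactive arrays. It was 9.57, 9.73 and 10.04 on the reactive and 7.82, 7.51 and 7.56 on the non-reactive arrays. Replicate 2 was not the lowest reactive array by this mean, though it was by the summed level, and the part of these cells was not tested.

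Cd82, a tetraspanin known as a suppressor of cell motility, measured 8.62, 8.45 and 9.94 on the reactive and 8.002, 8.40 and 8.37 on the non-reactive arrays. The groups were separated narrowly, 8.45 against 8.40 at their nearest arrays, and the difference was 0.74 (interval -0.25 to 1.73), or 0.27 without reactive replicate 3. At the other Cd82 probe set the groups overlapped, with a difference of 0.20 (interval -0.26 to 0.66). Cd81, a partner of Igsf8 and Ptgfrn that astrocytes carry, differed by 0.03 (interval -0.53 to 0.59). Cd151, the tetraspanin of the laminin-binding integrins, differed by 0.02 at its brightest probe set (interval -0.74 to 0.78). Its 5 other probe sets had differences from 0.05 to 0.73, and the groups did not overlap at 3 of them. Of the 5 tetraspanins, 0 passed and all 5 differences lay above 0, with a median of 0.74.

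Cd47, the thrombospondin receptor that also signals to Sirpa on phagocytes, measured 8.20, 8.65 and 6.92 on the reactive arrays, against 8.47, 8.45 and 8.37 on the non-reactive arrays. At this probe set reactive replicate 3 alone was low, and without it the difference of -0.51 was -0.004. The other Cd47 probe sets differed by -0.64, -0.62, -0.30 and 0.05. At the first of these reactive replicate 3 was the highest reactive array (8.405) and replicate 1 the lowest (6.60). At the second, reactive replicate 3 was again the lowest (6.39), beside 7.97 and 7.85 on the other reactive arrays. Bsg, which encodes basigin, a partner of monocarboxylate transporters and of some integrins, differed by 0.23 (interval -0.53 to 0.99).

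Of the 3 measured adaptors 0 passed, and the kindlins differed in opposite directions. Fermt2 encodes kindlin-2, the widely expressed kindlin of adherent cells including glia. It measured 8.71, 8.11 and 8.998 on the reactive arrays, against 9.98, 9.81 and 10.31 on the non-reactive arrays. The groups were well apart, and the difference of -1.43 (SE 0.29, interval -2.12 to -0.73), a mean 2.69-fold lower, had the lowest adjusted p of all 30 genes (limma, 0.0985). The other Fermt2 probe sets differed by -1.42 and -0.61, the first again with groups that did not overlap. Over 12 alternatives Fermt2 ran from -1.62 to -1.15, with an adjusted p of 0.0647 to 0.255, and passed in 0 of them.

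Fermt3 encodes kindlin-3, the kindlin of blood cells and microglia. It measured 9.35, 7.71 and 9.72 on the reactive arrays, against 7.27, 8.61 and 7.93 on the non-reactive arrays. Reactive replicate 2 again lay inside the non-reactive range, and the difference was 0.99 (SE 0.59, interval -0.42 to 2.40), or 0.59 without reactive replicate 3 and 1.60 without reactive replicate 2 (limma adjusted p = 0.2). At the 3 dimmer Fermt3 probe sets, where the groups did not overlap, the differences were 0.86, 0.90 and 0.44.

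The signal of Fermt3 minus that of Fermt2 was compared on each array, a contrast chosen after the values were seen. Since these are different probe sets, the zero of this scale has no meaning, and the comparison is between groups. It was 0.64, -0.40 and 0.72 on the reactive arrays, against -2.71, -1.20 and -2.38 on the non-reactive arrays. The groups did not overlap, and their means differed by 2.42, which is given only as a description. It is the Fermt3 difference less that of Fermt2, so it adds no separate support to them, and Fermt3 alone overlapped at this probe set. Pxn, which encodes paxillin, a scaffold of focal adhesions, measured 8.56, 9.17 and 10.50 on the reactive and 9.17, 9.72 and 9.43 on the non-reactive arrays. The reactive arrays spanned the non-reactive ones, and the difference was -0.03 (interval -1.20 to 1.14). Its 2 other probe sets differed by 1.00 and 0.73.

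**Figure D3:**
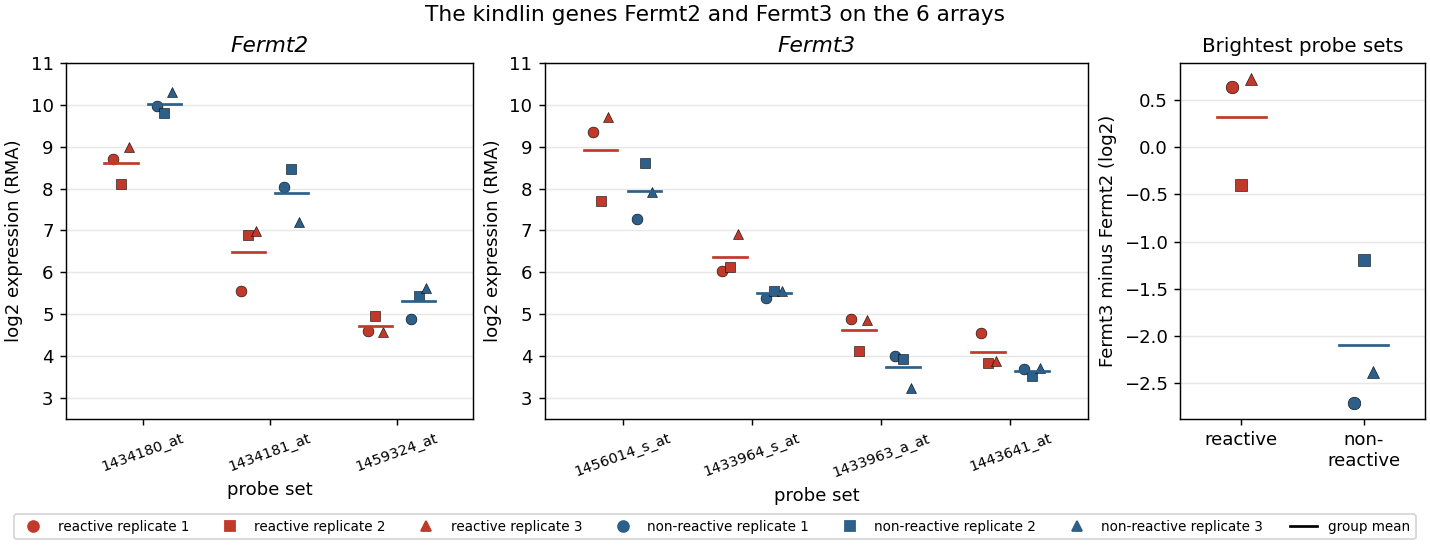
Left and middle, log2 RMA expression of every Fermt2 and Fermt3 probe set on each array, with group means as bars. Right, Fermt3 minus Fermt2 at their brightest probe sets, which was -0.40 to 0.72 on the reactive and -2.71 to -1.20 on the non-reactive arrays.

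Promoter sequence is shown for 3 leukocyte genes and for the tetraspanin and beta chain with the highest and lowest differences, to set leukocyte genes beside others. Of the 31 genes, 22 matched the RefSeq promoter table (GRCm38.p6). The 250 bases before the annotated start are printed 5′ to 3′ in the gene's direction. Capitals mark GAGGAA, the purine-rich core bound by the myeloid factor PU.1, and GGGCGG, the GC box, on either strand, and the motifs do not overlap in these windows.
Itgam, chr7:128062390-128062639, plus strand: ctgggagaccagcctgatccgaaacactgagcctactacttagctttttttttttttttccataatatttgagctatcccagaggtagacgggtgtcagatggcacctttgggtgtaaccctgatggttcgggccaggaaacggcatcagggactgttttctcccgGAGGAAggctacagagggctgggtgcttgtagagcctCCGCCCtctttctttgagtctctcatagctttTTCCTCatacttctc
Cd53, chr3:106790150-106790399, minus strand: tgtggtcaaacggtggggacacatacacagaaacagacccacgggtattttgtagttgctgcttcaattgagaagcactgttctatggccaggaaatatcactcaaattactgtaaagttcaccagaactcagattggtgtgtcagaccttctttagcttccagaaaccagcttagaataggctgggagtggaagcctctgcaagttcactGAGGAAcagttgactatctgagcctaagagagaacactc
Fermt3, chr19:7019470-7019719, minus strand: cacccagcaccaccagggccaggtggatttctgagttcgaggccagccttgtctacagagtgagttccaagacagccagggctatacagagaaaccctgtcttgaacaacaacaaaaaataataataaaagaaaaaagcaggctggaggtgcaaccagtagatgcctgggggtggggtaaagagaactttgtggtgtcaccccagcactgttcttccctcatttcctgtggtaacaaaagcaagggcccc
Cd9, chr6:125494761-125495010, minus strand: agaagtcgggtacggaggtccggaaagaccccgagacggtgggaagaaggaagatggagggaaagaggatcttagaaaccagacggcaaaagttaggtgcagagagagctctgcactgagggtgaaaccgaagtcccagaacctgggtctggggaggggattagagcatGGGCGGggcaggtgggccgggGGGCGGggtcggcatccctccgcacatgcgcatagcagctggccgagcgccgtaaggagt
Itgb8, chr12:119238277-119238526, minus strand: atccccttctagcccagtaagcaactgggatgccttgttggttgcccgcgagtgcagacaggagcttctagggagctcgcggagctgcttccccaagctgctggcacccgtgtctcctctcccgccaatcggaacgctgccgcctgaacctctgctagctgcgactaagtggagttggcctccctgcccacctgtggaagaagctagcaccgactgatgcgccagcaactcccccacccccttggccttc

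The Itgam window held 2 copies of GAGGAA, the Cd53 window 1 and the Fermt3, Cd9 and Itgb8 windows 0, and 23.25% of 32851 promoter windows of this length held at least 1. GGGCGG occurred once in the Itgam window and at 2 places in that of Cd9, against 32.74% of all windows with at least 1. The windows of the 3 leukocyte genes held 6, 2 and 1 CG dinucleotides, those of Cd9 and Itgb8 16 and 12, and the median window 6. Over all 28 matched windows of the 22 genes, 15 held GGGCGG and 7 held GAGGAA. The second was also found in windows of Itgav, Cd82, Itgb1, Itga3 and Itga5, and in none of those of Itgax, Itga4 and Itgb7, so its presence did not follow the division into leukocyte and other genes. These matches describe the letters and not the binding of a factor.

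Within the reactive group, replicate 2 was most often the lowest array. It gave the lowest reactive value for 18 of the 30 genes, 60% of them, against 34.8% of all 18193 genes. Itgb2, Cd53 and Fermt3 were among those 18, while 6 genes were highest there, namely Itgam, Itga8, Itgav, Itgb4, Itgb8 and Cd47. The spread between replicates was larger in the reactive group for 66.7% of the 30 genes and for 65.9% of all genes.

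Over all 76 probe sets of the 30 genes 0 passed, against 0.85% of all probe sets. The groups did not overlap at 20 that were higher and 5 that were lower, against 12.8% and 8.08% of all probe sets. Of the 19 genes with several probe sets, 11 had differences of one sign throughout and 8 had both signs. Fermt3 at 4 of 4, Cd151 at 6 of 6 and Itga5 at 4 of 4 lay above 0, and Fermt2 at 3 of 3 and Itgb5 at 4 of 4 lay below it.

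**Figure D4:**
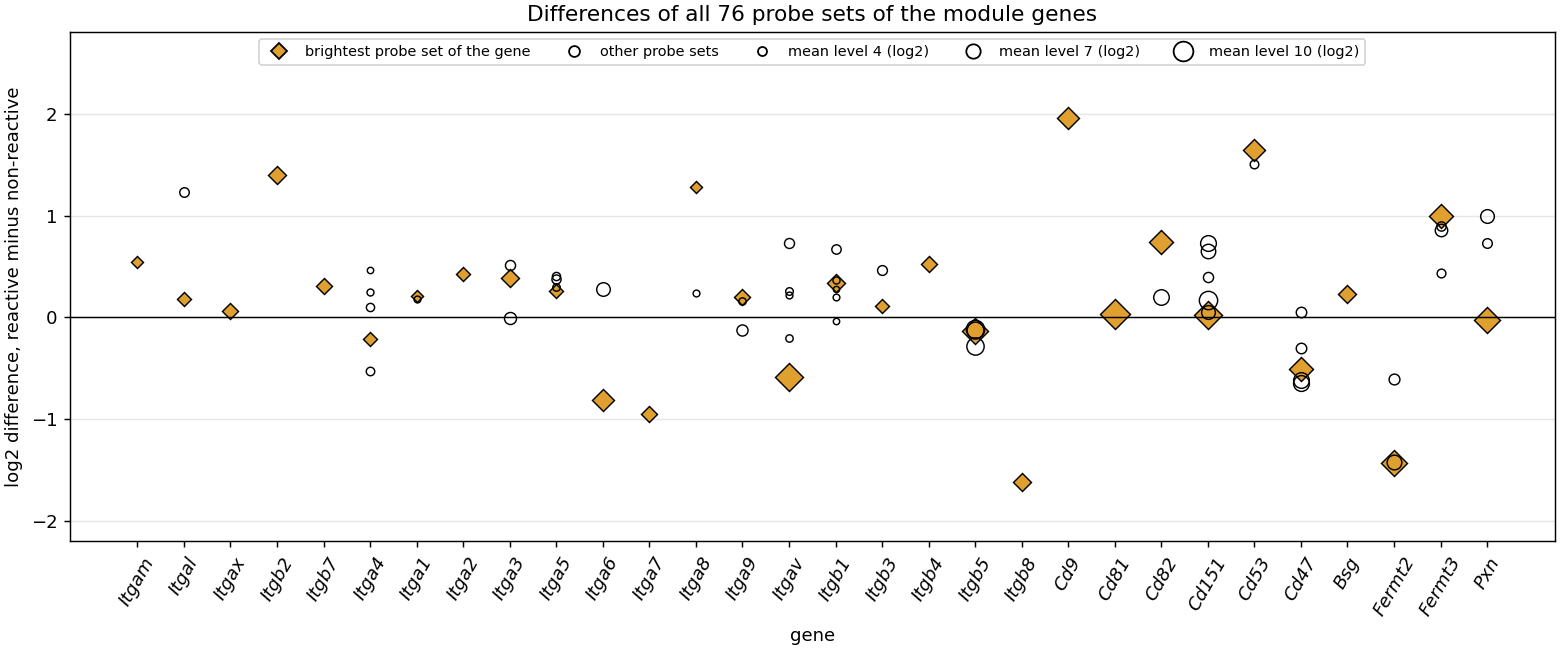
Log2 difference, reactive minus non-reactive (y axis), of all 76 probe sets, by gene, with symbol size growing with the mean level. Diamonds are the brightest probe sets, used for the gene. For Itgal, Itgav, Itga6 and Pxn the other probe sets lie away from the diamond, though that of Itgal is also above 0. All probe sets of Itgb5 lie below 0 and all of Fermt3 above it.

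The surrounding pathway was described from a list of 79 further genes, of which 73 were measured. Of these, 0 rose and 2 fell over all probe sets, against 0.39% and 0.561% of all genes. Both that fell encode ligands of alpha v integrins. Mfge8, a secreted bridge between alpha v integrins and phosphatidylserine on dying cells that astrocytes make, measured 10.39, 9.98 and 9.56 on the reactive arrays, against 12.20, 12.33 and 11.78 on the non-reactive arrays. The groups were more than 1 log2 unit apart at their nearest arrays. Mfge8 fell by 2.13 on the log2 scale (SE 0.29), a 4.37-fold change with a limma adjusted p of 0.0387. That call was lost without any 1 of the 6 arrays, where the adjusted p was 0.0604 to 0.142 and the difference -2.34 to -1.92, and over all alternatives run the adjusted p was 0.0285 to 0.142.

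Ccn1, a matricellular ligand of alpha v and beta 1 integrins, measured 3.56, 4.18 and 4.51 on the reactive arrays, against 7.98, 8.15 and 8.98 on the non-reactive arrays. The reactive values lie below the median probe set of 4.74, so the size of the change is uncertain. It fell by 4.28 (SE 0.37, limma adjusted p = 0.0199), and by 2.67 as the mean of its probe sets, where the call was lost. Without non-reactive replicate 1, 2 or 3 the call was also lost, with adjusted p of 0.062, 0.0701 and 0.0582. Over all alternatives it was 0.0171 to 0.105.

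Of 25 measured adhesion proteins that bind integrin tails or each other, 0 passed, with a median difference of 0.12. Tln1, talin-1, measured 9.99, 10.81 and 9.65 on the reactive and 9.40, 9.42 and 9.34 on the non-reactive arrays, a difference of 0.76 (limma adjusted p = 0.377) without overlap of the groups. It was 0.43 without reactive replicate 2 and 0.21 as the mean of its probe sets. Tns3, a tensin, differed by -0.28. Of 4 further integrin subunits 0 passed. Itga2b, the platelet and megakaryocyte chain, differed by 1.15 (SE 0.26, limma adjusted p = 0.128), with 7.27, 8.05 and 7.53 on the reactive and 6.55, 6.25 and 6.62 on the non-reactive arrays, again without overlap. Itgae, a chain of mucosal T cells, differed by 0.07.

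Of 18 further tetraspanins and tetraspanin partners 0 passed, with a median difference of 0.21. Tspan3 differed by -0.90 and Tspan17 by 1.04. Tspan4, a choice made with its values in view, had a difference of 1.85 (SE 0.45, limma adjusted p = 0.148), with 7.86, 8.50 and 9.22 on the reactive and 6.76, 7.27 and 5.99 on the non-reactive arrays. Like Cd9 it was lowest on non-reactive replicate 3, and its groups did not overlap. Of 26 integrin ligands and counter-receptors, Mfge8 and Ccn1 were the 2 that fell and 0 rose. Sirpa, the receptor of Cd47, differed by 0.06.

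Fn1 and Tgfb2 were also named after their values were seen. Fn1, fibronectin, measured 5.84, 6.12 and 9.15 on the reactive and 4.61, 4.65 and 5.21 on the non-reactive arrays, a difference of 2.21 (limma adjusted p = 0.342) in which reactive replicate 3 stood far above the rest and without which it was 1.15. On that array the summed level of 8 endothelial and pericyte markers was 1758. It was 310 and 441 on the other reactive arrays and 586 to 1088 on the non-reactive ones. The sum on reactive replicate 3 follows Cldn5, Kdr and Acta2, at 9.36, 8.73 and 8.63 (log2) there. Pecam1, Tek, Flt1, Rgs5 and Pdgfrb were at 3.56, 3.315, 5.23, 6.69 and 6.84, and the part of those cells was not tested. Tgfb2, a cytokine of the TGF-beta family, measured 4.42, 4.23 and 7.48 on the reactive arrays, against 7.80, 8.46 and 7.92 on the non-reactive arrays. Every reactive value was lower, and the difference of -2.68 (SE 0.85) had a limma adjusted p of 0.256. It was -3.73 without reactive replicate 3, where it passed (limma adjusted p = 0.033, with other alternatives up to 0.543), and -0.95 as the mean of its probe sets.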

How the data were processed

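Values were deposited as log2 expression per probe set, made by the authors with RMA per the submitters' processing notes (its version and settings: not given in the sources used). RNA was amplified in 2 rounds and biotin-labelled, per the labels' protocols. RMA equalises array distributions, so changes in total RNA are hidden. Of 45101 probe sets, 64 controls were left out. The platform annotation gave 1 symbol for 34945 of the other 45037, and gene identifiers of all 30 measured members gave the same symbol in RefSeq. Reactive minus non-reactive was fitted on 6 arrays with lmFit and eBayes (limma 3.58.1, R 4.3.3), two-sided, with Benjamini-Hochberg adjustment over 45037 probe sets and a threshold of 0.05. The fit was tested on simulated data. Errors are moderated standard errors. Having 3 arrays a group limits the precision, and p-values measure the spread between pools that the labels call biological replicates. All members are named; of the pathway list, those that passed and the 2 brightest of each sub-list are. Members and lists were chosen with earlier results of these data known. There were 12 alternatives: cyclic loess, eBayes with trend and robust, dim probe sets left out, suffix-marked probe sets (which can match several transcripts) left out, means of probe sets, a replicate block and each array left out.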

Additional observations from a re-analysis of the deposited data

How the results depend on the processing

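In 351 recomputed member differences over the 12 alternatives 0 passed, so the count of 0 members in either direction held throughout, and 19 of 30 members kept their sign in every alternative run. The 2 pathway genes that fell became 1 when probe sets of a gene were averaged, 1 without suffix-marked probe sets (where Mfge8 had no probe set left), 0 with the replicate block, and 0 to 2 when 1 array was left out. Mfge8 passed in 0 of those 6, and the 2 found without reactive replicate 3 were Ccn1 and Tgfb2. Over all genes 173 passed in the main setting, 110 with trend and robust moderation, 0 with the replicate block and 0 to 77 with 1 array left out. Deviations of same-numbered arrays from their group means correlated at -0.07, -0.11 and 0.04. With 3 arrays a group these values cannot settle whether same-numbered arrays shared a batch, and the labels state none. With the mean of the probe sets Itga4 differed by 0.0152, Itgav by 0.0847, Pxn by 0.57, Tns3 by 0.77, Itgae by -0.0307 and Sirpa by -0.0846, each with its sign changed. Without suffix-marked probe sets Itga3 differed by -0.00533 and Pxn by 1.00. With 1 array left out, values crossed 0 for Itgax (-0.0227 to 0.22), Itga1 (-0.00233 to 0.39), Itgb3 (-0.17 to 0.37), Itgb4 (-0.0907 to 1.15), Cd81 (-0.075 to 0.23), Cd151 (-0.20 to 0.27), Bsg (-0.0782 to 0.42), Pxn (-0.57 to 0.39), Itgae (-0.032 to 0.17) and Sirpa (-0.0812 to 0.21). The causes were not tested. Signal close to background limits Itgam, Itga1, Itga8 and the alpha chains near the median probe set.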
